A study of Mus musculus with 8 samples.

Results

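The transcripts described here are those of Htt, which encodes huntingtin, and of 8 genes around it: its binding partners Hap1, Hip1, Zdhhc17, Pacsin1, Sh3gl3 and Dlg4, the Hip1 relative Hip1r and the Hap1 partner Ahi1. The genes were chosen by name. They are 9 of the 32567 genes in the mRNA count table, and all 9 were among the 15492 genes above the expression limit, a mean log2 CPM (read counts scaled to a fixed library size) above 0 over the 4 libraries.

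The study asked what loss of huntingtin does to gene expression in mouse embryonic stem cells (ESC) and after neural differentiation with retinoic acid (RA-DIFF). Wild-type ESC were compared with the Htt-null line homozygous for Hdh ex4/5, a targeted allele named after exons 4 and 5 of the gene. Both were grown with leukaemia inhibitory factor, first on feeder cells and then without them. RA-DIFF cells came from embryoid bodies cultured for 8 days, with 5 µM retinoic acid from day 4, that were dissociated, plated and collected 2 h later. Each condition is 1 polyadenylated RNA library, so there were 4 mRNA libraries, with no replicate, from 1 cell line of each genotype. No spread between replicates could be measured and ratios are described without a test, except for an exact test at an assumed spread among the alternatives. Differences between the lines other than the allele cannot be told apart from the genotype.

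Huntingtin is a large scaffold of helical repeats that links vesicles to microtubule motors and takes part in endocytosis, transcription and synaptic function. Hap1 couples it to dynein and kinesin, Hip1 and Hip1r join clathrin coats to actin, and Zdhhc17 attaches palmitate to huntingtin and other neuronal proteins. Pacsin1 and Sh3gl3 bind membranes of high curvature, Dlg4 (PSD-95) organises the postsynaptic density, and Ahi1 (jouberin) works at the ciliary transition zone and forms a complex with Hap1.

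The allele is defined by exons 4 and 5 of Htt, which are therefore shown. In the RefSeq genome GRCm38.p6 both lie on the plus strand of chromosome 5 and are coding in the full-length transcript of 67 exons. Exon 4 spans chr5:34794105-34794164 and exon 5 spans chr5:34795892-34795971. Capitals mark the exon and lower case the 15 intronic bases on each side.
Htt exon 4: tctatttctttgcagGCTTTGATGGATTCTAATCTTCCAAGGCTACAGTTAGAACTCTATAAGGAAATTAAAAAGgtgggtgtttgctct
Htt exon 5: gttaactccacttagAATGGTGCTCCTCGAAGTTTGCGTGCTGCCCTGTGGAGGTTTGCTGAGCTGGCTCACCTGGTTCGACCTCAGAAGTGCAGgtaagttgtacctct
The exons hold 60 and 80 bases, 140 together, which is not a multiple of 3. They make up 1.06% of the 13215 bases of that transcript, so counts summed over the gene hardly depend on whether they are present. The Htt count therefore measures transcript from the locus as a whole and does not show which exons it contained.

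Library totals ran from 63617410 to 110569127 counts, and 3 counts, the upper limit for a count of 0, equalled 0.0268 to 0.0460 normalised CPM. Levels below are CPM scaled by trimmed mean of M values (TMM). Intervals are exact 95% intervals of the counts (Poisson for levels, Clopper-Pearson for ratios). They cover counting error only, and they treat reads as independent, although reads copied by PCR are not independent molecules. A gene was past the fold limit when its absolute log2 ratio was above 0.75. In bulk RNA, fewer cells of a type and less RNA per cell cannot be told apart.

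Htt was lower in Htt-null ESC than in wild-type ESC, but its transcript was still abundant there. Htt (ENSMUSG00000029104) occupies chr5:34761740-34912534 on the plus strand. In ESC it had 14385 counts, or 166 CPM, in the wild-type library and 7260 counts, or 111 CPM, in the Htt-null library. In RA-DIFF it had 8212 counts, or 73.3 CPM, in the library labelled wild type and 9722 counts, or 98.7 CPM, in the library labelled Htt-null. Wild-type ESC thus held the highest level and the RA-DIFF library labelled wild type the lowest, 2.26-fold apart.

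The log2 ratio of Htt-null to wild type was -0.58 (95% interval -0.62 to -0.53) in ESC, a level of 0.671 of wild type, and 6.27% of all genes above the expression limit had a lower ratio. In RA-DIFF the sign was opposite, at 0.43 (0.39 to 0.47). The targeted gene therefore went against the label in RA-DIFF, and the study's own supplementary table of expression by condition assigns these 2 RA-DIFF columns the other way round from the labels. The RA-DIFF libraries are called by their label throughout. With the labels exchanged, the Htt ratio in RA-DIFF was -0.43, and every other RA-DIFF genotype ratio below likewise changes sign.

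Differentiation went with lower Htt in the libraries labelled wild type, where RA-DIFF over ESC gave a log2 ratio of -1.18 (-1.22 to -1.14), past the fold limit. In the libraries labelled Htt-null it was -0.17 (-0.22 to -0.13). With the RA-DIFF labels exchanged the values were -0.75 for wild type and -0.60 for Htt-null, neither past the limit. RA-DIFF was lower than ESC in all of these pairings, and only the sizes depended on the labels.

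**Figure D1:**
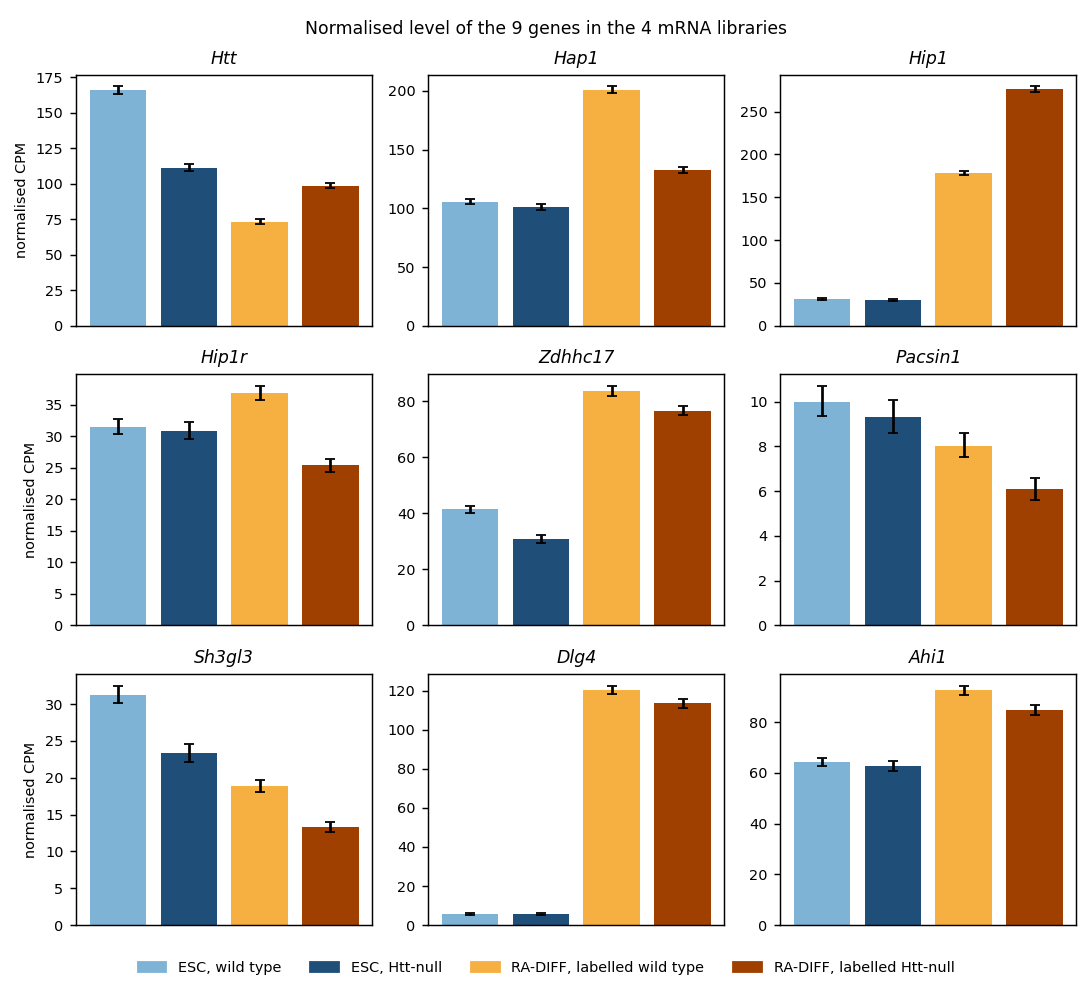
Normalised level in CPM (vertical axis, from 0, a scale of its own for each gene) of the 9 genes in the 4 libraries, 1 bar per library, with exact 95% Poisson intervals of the counts as error bars. Htt is highest in wild-type ESC at 166 CPM, while Hip1 and Dlg4 are far higher in both RA-DIFF libraries than in either ESC library.

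Hap1, the motor adaptor, was the most abundant of the 9 genes per annotated exonic length in every library. It had the lowest genotype ratio of them in RA-DIFF by label, or the highest, at 0.60, with labels exchanged. Hap1 (chr11:100347327-100356128, minus strand) had 9159 counts (106 CPM) in wild-type ESC, 6613 (101 CPM) in Htt-null ESC, 22543 (201 CPM) in RA-DIFF labelled wild type and 13060 (133 CPM) in RA-DIFF labelled Htt-null. The ESC libraries were close together and both RA-DIFF libraries were higher. The genotype log2 ratio was -0.06 (-0.10 to -0.01) in ESC and -0.60 (-0.63 to -0.57) in RA-DIFF. Differentiation gave 0.93 in the libraries labelled wild type, past the limit, and 0.39 in those labelled Htt-null. With labels exchanged, the values of 0.33 and 0.99 put the larger difference in Htt-null.

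Ahi1, which binds Hap1, varied little. Ahi1 (chr10:20952547-21080428, plus strand) had 64.2 CPM in wild-type ESC, 62.7 in Htt-null ESC, 92.4 in RA-DIFF labelled wild type and 84.8 in RA-DIFF labelled Htt-null. Both RA-DIFF libraries were above both ESC libraries, with log2 differentiation ratios of 0.53 and 0.43, inside the fold limit. The genotype ratios were -0.03 in ESC and -0.12 in RA-DIFF.

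Hip1, the clathrin and actin adaptor, was much higher after differentiation, and had the highest genotype ratio of the 9 genes in RA-DIFF by label, or the lowest, at -0.63, with labels exchanged. Hip1 (chr5:135406531-135545120, minus strand) had 2653 counts (30.6 CPM) in wild-type ESC and 1972 (30.2 CPM) in Htt-null ESC. It had 19979 counts (178 CPM) in RA-DIFF labelled wild type and 27169 (276 CPM) in RA-DIFF labelled Htt-null. The genotypes differed by less than the counting error in ESC, with a log2 ratio of -0.02 (-0.10 to 0.07), and stood at 0.63 (0.60 to 0.66) in RA-DIFF. Differentiation gave 2.54 and 3.19 in the libraries labelled wild type and Htt-null, 5.83-fold and 9.12-fold, both past the limit. With labels exchanged they were 3.17 for wild type and 2.56 for Htt-null. Hip1 and Htt were the only 2 of the 9 genes that were higher in RA-DIFF labelled Htt-null than in RA-DIFF labelled wild type.

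Hip1r, the paralogue of Hip1, did not follow it. Hip1r (chr5:123973628-124005558, plus strand) had 31.5 CPM in wild-type ESC, 30.9 in Htt-null ESC, 36.8 in RA-DIFF labelled wild type and 25.4 in RA-DIFF labelled Htt-null. Its genotype ratio was -0.03 in ESC and -0.54 (-0.61 to -0.46) in RA-DIFF. Differentiation gave 0.23 and -0.28, so the sign differed between the genotypes, and neither value was past the limit. With labels exchanged the signs turned, to -0.31 for wild type and 0.26 for Htt-null. At its end, 918 exonic bases overlap exons of Vps37b on the opposite strand, which had 704, 488, 3808 and 4140 counts in the same order of libraries. The study's methods name no strand option for the counting beyond a general use of defaults, and how reads of these overlapping exons were assigned was not tested.

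Zdhhc17, the huntingtin palmitoyl transferase, was lower in Htt-null ESC and higher after differentiation. Zdhhc17 (chr10:110941782-111010066, minus strand) had 3593 counts (41.4 CPM) in wild-type ESC, 2010 (30.8 CPM) in Htt-null ESC, 9384 (83.7 CPM) in RA-DIFF labelled wild type and 7556 (76.7 CPM) in RA-DIFF labelled Htt-null. The genotype ratio in ESC was -0.43 (-0.51 to -0.35), inside the fold limit, and 10.6% of genes above the expression limit had a lower one. In RA-DIFF it was -0.13 (-0.17 to -0.08). Differentiation gave 1.02 and 1.32, past the limit in both.

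The membrane-curving proteins Sh3gl3 (endophilin-A3) and Pacsin1 (syndapin I), which act in synaptic vesicle recycling, were lower in RA-DIFF than in ESC. Sh3gl3 (chr7:82173840-82307419, plus strand) had 2711 counts (31.3 CPM) in wild-type ESC, 1521 (23.3 CPM) in Htt-null ESC, 2111 (18.8 CPM) in RA-DIFF labelled wild type and 1311 (13.3 CPM) in RA-DIFF labelled Htt-null. Its genotype ratio was -0.42 (-0.51 to -0.33) in ESC and -0.50 (-0.60 to -0.40) in RA-DIFF. With labels exchanged the RA-DIFF value was 0.50, so the shared sign rests on the labels. Its differentiation ratios of -0.73 and -0.81 lay on either side of the limit, and with DESeq2 size factors both were past it. With a fold limit of 1, or the exact test at an assumed dispersion of 0.1, neither was. With labels exchanged they were -1.23 for wild type, past the limit, and -0.31 for Htt-null, inside it.

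Pacsin1 (chr17:27655509-27711106, plus strand) had 10.0 CPM in wild-type ESC, 9.31 in Htt-null ESC, 8.03 in RA-DIFF labelled wild type and 6.07 in RA-DIFF labelled Htt-null, from 867, 607, 900 and 598 counts. The genotype ratio was -0.10 (-0.26 to 0.05) in ESC, not detectable at this depth, and -0.40 (-0.55 to -0.25) in RA-DIFF. Differentiation gave -0.32 and -0.62, inside the limit.

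Dlg4, the postsynaptic scaffold, showed the largest differentiation ratio of the 9 genes. Per kb of annotated exons it was the lowest of them in ESC and the fifth in RA-DIFF, in both genotypes. Dlg4 (chr11:70017085-70045532, plus strand) had 482 counts (5.56 CPM) in wild-type ESC and 359 (5.50 CPM) in Htt-null ESC. It had 13493 counts (120 CPM) in RA-DIFF labelled wild type and 11172 (113 CPM) in RA-DIFF labelled Htt-null. Differentiation gave log2 ratios of 4.44 (4.31 to 4.57) and 4.36 (4.21 to 4.52), or 21.6-fold and 20.6-fold, and 5.71% and 6.25% of genes above the expression limit had higher ratios. The genotype ratios were -0.01 (-0.22 to 0.19) in ESC and -0.09 (-0.12 to -0.05) in RA-DIFF.

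**Figure D2:**
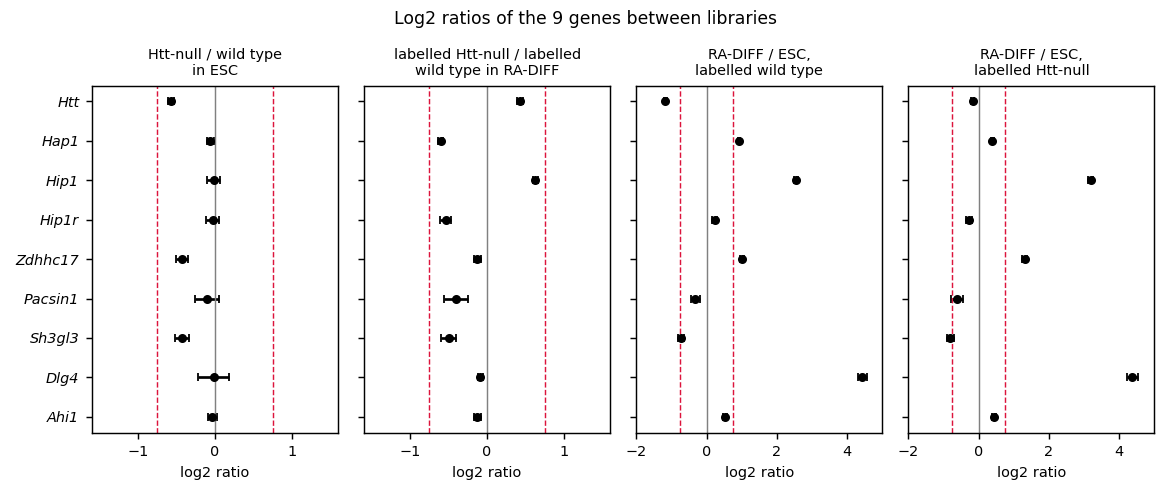
Log2 ratios (horizontal axis) of the 9 genes in the 4 comparisons, 1 point per gene with its exact 95% counting interval, dashed lines at the fold limit of 0.75 in either direction. All points in both genotype panels lie between the dashed lines, whereas Dlg4 and Hip1 lie far to the right in both differentiation panels.

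Counted together, none of the 9 genes was past the fold limit between genotypes in ESC, where 5.38% of all genes above the expression limit were higher and 3.74% were lower in Htt-null. All 9 ratios were below 0 with TMM scaling but 5 with library size alone, where Hip1, Hip1r, Dlg4 and Ahi1 stood at 0.02 to 0.04. The TMM ratios had a median of -0.06 against -0.04 over all these genes, with median absolute ratios of 0.059 and 0.217, and those of Hap1, Hip1, Hip1r, Dlg4 and Ahi1 lay between -0.06 and -0.01. In RA-DIFF, too, 0 of 9 were past the limit, beside 11.9% of all genes higher with the Htt-null label and 9.23% lower. Here the absolute ratios had a median of 0.43, against 0.28 over all genes.

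After differentiation, 4 of the 9 genes (Hap1, Hip1, Zdhhc17 and Dlg4) were past the limit upwards and 1 (Htt) downwards in the libraries labelled wild type. Over all genes, 34% were higher and 26.2% lower. In the libraries labelled Htt-null, 3 (Hip1, Zdhhc17 and Dlg4) were higher and 1 (Sh3gl3) lower, beside 34.4% and 24.9% of all genes. With the RA-DIFF labels exchanged the genes past the limit were Hip1, Zdhhc17, Dlg4 and, downwards, Sh3gl3 in wild type, and Hap1, Hip1, Zdhhc17 and Dlg4 in Htt-null. Hip1, Zdhhc17 and Dlg4 were thus past it in every pairing. The median absolute ratios of the 9 genes were 0.93 and 0.62, against 1.01 and 0.99 over all genes.

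Divided by exonic length (all exons of a gene in GENCODE vM21), the levels gave an order of the genes. This order depends on the annotated length. For Htt that length was 24438 bases, against 13215 bases for its full-length transcript, and no other length was tried. In wild-type ESC, Hap1 stood first at 28.0 CPM per kb, followed by Ahi1, Sh3gl3, Htt (6.79), Zdhhc17, Hip1r, Hip1 (2.36), Pacsin1 and Dlg4 (0.419). In Htt-null ESC the order was the same, but the intervals of Htt and Zdhhc17, and of Zdhhc17 and Hip1r, overlapped. In RA-DIFF labelled wild type the order was Hap1 (53.4), Hip1 (13.8), Ahi1, Zdhhc17, Dlg4 (9.09), Hip1r, Sh3gl3, Htt (3.00) and Pacsin1. In RA-DIFF labelled Htt-null Htt (4.04) stood above Hip1r and Sh3gl3. All neighbours in the order other than those 2 pairs had intervals that did not overlap. The intervals cover counting error only, so they leave out the effect of the chosen length.

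The genotype ratios of RA-DIFF stood beside large differences in cell type markers. Of 12 neuronal markers, 9 were lower past the limit in the library labelled Htt-null, with summed levels of 3033 CPM in the library labelled wild type and 1435 CPM in the other. Of 12 fibroblast and mesenchyme markers, 11 were higher, with sums of 657 and 2531 CPM. Of 8 neural progenitor markers, 1 was higher and 3 were lower (sums 4459 and 5632 CPM, or 2747 and 2726 CPM without Vim, which mesenchyme also expresses), and of 10 pluripotency markers 9 were lower (sums 63.8 and 16.2 CPM). Over all genes, 11.9% were higher and 9.23% lower with the Htt-null label. None of these markers was at 0 in RA-DIFF, and all directions turn if the labels are exchanged. Their part in the ratios of Hap1, Hip1, Hip1r, Pacsin1, Sh3gl3 and Htt was not tested.

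In ESC, pluripotency markers summed to 5980 CPM in wild type and 5106 CPM in Htt-null, with 1 of 10 lower, and neural progenitor markers to 700 and 627 CPM (578 and 495 CPM of it from Sox2, which ESC express as a pluripotency factor), with 2 of 8 higher and 1 lower. Neuronal markers summed to 294 and 334 CPM, with 3 of 12 higher, and fibroblast and mesenchyme markers to 45.8 and 29.4 CPM, with 1 of 12 higher and 7 lower. Of these, Dcx (5 counts in wild type and 8 in Htt-null), Fabp7 (4 and 1), Lum (0 and 1), Dcn (10 and 0) and Postn (66 and 27) passed the expression limit through RA-DIFF alone and are not read as differences in ESC. Over all genes, 5.38% were higher and 3.74% lower in Htt-null ESC. Chromosome 11, which carries Hap1 and Dlg4, had a median genotype ratio of 0.22 over 1223 genes in ESC, against -0.06 over all other genes. Hap1 and Dlg4 lay below that median, at -0.06 and -0.01. In RA-DIFF the chromosome 11 median was 0.01, against -0.01 elsewhere. For differentiation in the libraries labelled Htt-null it was -0.09, against 0.20 elsewhere. For chromosomes 5, 7, 10 and 17, which carry the other 7 genes, the ESC medians ran from -0.12 on chromosome 10 to -0.06.

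The genes around Htt had genotype ratios that scattered around 0. Within 500 kb of Htt lay 29 other genes, of which 12 were above the expression limit. Their genotype ratios had a median of -0.02 in ESC (range -1.12 to 0.61) and of 0.01 in RA-DIFF (range -0.98 to 0.60). The single one past the limit was an unclassified transcript with 44, 15, 291 and 129 counts in wild-type ESC, Htt-null ESC, RA-DIFF labelled wild type and RA-DIFF labelled Htt-null. It passed the expression limit through RA-DIFF alone and is not read as a difference in ESC, and without it the ESC range was -0.21 to 0.61 over 11 genes.

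Among the coding neighbours, Nop14, a ribosome assembly factor, stood at -0.02 in ESC and 0.17 in RA-DIFF. Grk4, a receptor kinase, stood at 0.38 and 0.01, and Rgs12, a regulator of G protein signalling, at 0.15 and -0.21. The signs of Htt, below 0 in ESC and above 0 in RA-DIFF, were shared by 5 of the 12 neighbours, among them Mfsd10 at -0.19 and 0.48 and Lrpap1 at -0.21 and 0.28, while Tnip2, an inhibitor of NF-kB signalling, was positive in both, at 0.61 and 0.60. Msantd1, whose annotated start lies inside Htt on the same strand, shares no exonic base with it and had 24 to 173 counts in a library.

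**Figure D3:**
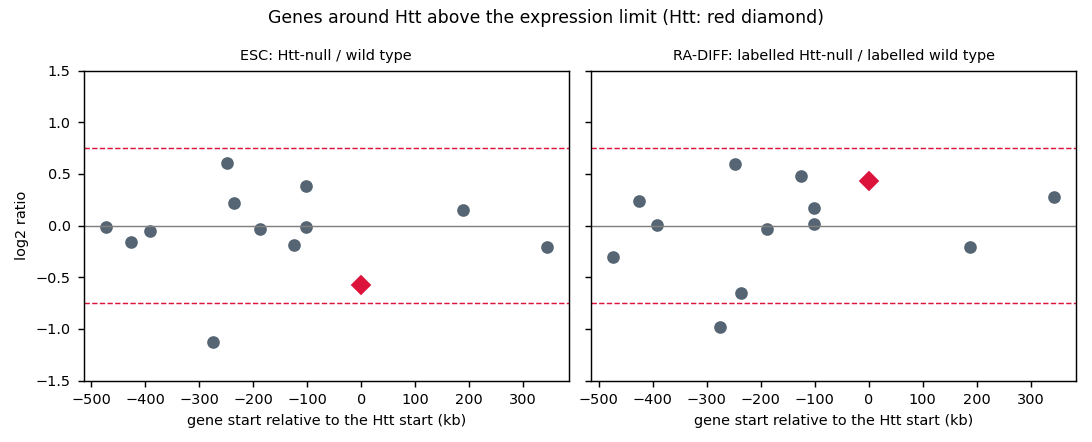
Log2 genotype ratio (vertical axis) against distance of a gene's start from that of Htt in kb (horizontal axis) for genes within 500 kb above the expression limit, 1 point per gene, Htt as a red diamond, dashed lines at 0.75. In ESC Htt (-0.58) lies below 11 neighbours and above the low-count transcript, and in RA-DIFF (0.43) it lies among the upper ones.

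The genes whose pattern over the 4 libraries was most like that of Htt, among 13930 coding genes, were Crem, Fam160b1, Fam111a, Lrp5 and Zfyve21. Likeness was the root mean square difference of log2 CPM centred on each gene's mean, which was 0.036 for Crem and 0.067 for Zfyve21. Over 4 libraries this is a description only. Crem, a cAMP-responsive transcription factor, had log2 genotype ratios of -0.48 in ESC and 0.44 in RA-DIFF. Lrp5, a Wnt co-receptor, had -0.40 and 0.46.

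The upstream sequences of Htt and Hip1 are shown because these genes had opposite differentiation ratios. They are the 250 bases before the RefSeq start in GRCm38.p6, chr5:34761490-34761739 on the plus strand for Htt and chr5:135545123-135545372 on the minus strand for Hip1. Capitals mark GGGCGG, the core of GC boxes, on either strand.
Htt: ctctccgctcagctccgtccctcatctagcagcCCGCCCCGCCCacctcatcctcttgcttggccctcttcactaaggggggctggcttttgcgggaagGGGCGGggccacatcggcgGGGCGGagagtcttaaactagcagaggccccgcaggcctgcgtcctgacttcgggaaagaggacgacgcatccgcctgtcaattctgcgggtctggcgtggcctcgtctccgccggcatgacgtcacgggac
Hip1: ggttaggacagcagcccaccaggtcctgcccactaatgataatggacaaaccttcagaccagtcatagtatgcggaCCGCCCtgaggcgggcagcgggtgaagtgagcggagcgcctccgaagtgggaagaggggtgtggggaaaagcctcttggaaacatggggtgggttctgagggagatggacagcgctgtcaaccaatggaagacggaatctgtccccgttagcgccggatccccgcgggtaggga
The Htt window held 4 matches to GGGCGG, of which 2 overlap by 1 base, a GC content of 66.4% and 22 CpG, and the Hip1 window held 1 match, 60% GC and 14 CpG. Over 32851 windows of this length the medians were 52.4% GC and 6 CpG, and 32.7% held GGGCGG. It was present in the window of 6 of the 9 genes. Of the 15 windows of these genes, only that nearest to each annotated gene start was used. Its RefSeq start lay 29730 bases from the gene start for Pacsin1 and 956 for Sh3gl3, both with a match. AGGTCA, the repeat unit of retinoic acid response elements, was searched on both strands and was found in the window of 1 of the 9 genes, Dlg4, and in 14% of all windows. A match describes letters only, not a site that is bound.

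Genes related to the 9 by function were counted in the same way. The shares of all genes to set beside each list are those given above. For differentiation they were 34% higher and 26.2% lower in the libraries labelled wild type, and 34.4% and 24.9% in those labelled Htt-null. Between genotypes, 5.38% of all genes lay past the limit upwards in ESC and 3.74% downwards. By label in RA-DIFF these genotype shares were 11.9% and 9.23%. Of 18 other huntingtin interactors, none was past the limit between genotypes in ESC and 1 was higher in RA-DIFF. This was Cbs, the enzyme that makes cystathionine, with 1691, 997, 1043 and 4662 counts in the order of libraries used above and a log2 ratio of 2.35. Differentiation gave 3 higher and 6 lower in the libraries labelled wild type, and 4 higher and 3 lower in those labelled Htt-null. The corepressor Ctbp1 stood at 2.06 and 1.76, the histone acetyltransferase Crebbp at 1.98 and 2.11, p53 (Trp53) at -1.74 and -1.76 and the autophagy receptor Optn at -1.43 and -1.02. The medians of this list were -0.04 and 0.03 between genotypes and -0.26 and -0.07 for differentiation.

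Of 10 paralogues of the 9 genes, Dlg2 was the single one past the limit between genotypes, at -0.88 in RA-DIFF. In ESC it had 8 counts in wild type and 3 in Htt-null, too few to read a difference. After differentiation 3 were higher and 4 lower in the libraries labelled wild type, and 3 higher and 2 lower in those labelled Htt-null. Dlg2, the neuronal paralogue of Dlg4, stood at 6.13 and 6.17, sizes that are not read because it passed the expression limit through RA-DIFF alone. The widely expressed Dlg1 stood at -1.43 and -0.85. Sh3gl2 (endophilin-A1) was lower, at -2.25 and -2.66, the direction of Sh3gl3. Pacsin3 was higher, at 1.36 and 1.40, unlike Pacsin1. The list medians were -0.20 and 0.09 between genotypes and -0.59 and 0.02 for differentiation.

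Of 18 genes of clathrin-mediated endocytosis, the process of Hip1, none was past the limit between genotypes in ESC. In RA-DIFF the light chain Cltb was higher in the library labelled Htt-null, at 1.33. The dynamins Dnm3 (-1.23) and Dnm1 (-0.76), which cut vesicles from the membrane, and the neuronal coat assembly protein Snap91 (-1.22) were lower. Differentiation gave 6 higher and 1 lower in the libraries labelled wild type and 7 higher and 0 lower in those labelled Htt-null. The amphiphysin Bin1 stood at 2.34 and 2.30, and Dnm3 at 7.50 and 6.12. Dnm3 had 12 counts in wild-type ESC and 10 in Htt-null ESC. It passed the expression limit through RA-DIFF alone, so the size of its differentiation ratios is not read. The list medians were -0.09 and -0.01 between genotypes and 0.22 and 0.39 for differentiation.

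Of 13 genes of the ciliary transition zone, where Ahi1 acts, none was past the limit between genotypes. After differentiation 8 were higher and 1 lower in the libraries labelled wild type, and 9 higher and 1 lower in those labelled Htt-null. The lower ones were Cep290 (-0.84 and -0.11) in the former and Mks1 (-0.58 and -0.90) in the latter. The list medians were -0.14 and 0.15 between genotypes and 0.87 and 1.04 for differentiation.

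Of 11 genes of the postsynaptic density, where Dlg4 resides, Grin1, the obligatory NMDA receptor subunit, was higher in Htt-null ESC, at 0.89, while its RA-DIFF genotype ratio was -0.95. The scaffold Shank1 was also lower there, at -1.22. Differentiation gave 7 higher and 0 lower in the libraries labelled wild type and 6 higher and 1 lower in those labelled Htt-null. The adhesion protein Nlgn1 had 0 counts in both ESC libraries. The list medians were -0.0051 in ESC over the 10 genes other than Nlgn1 and -0.26 in RA-DIFF between genotypes, and 2.55 and 2.15 for differentiation, and the ratios of Dlg4 were above the latter 2.

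**Figure D4:**
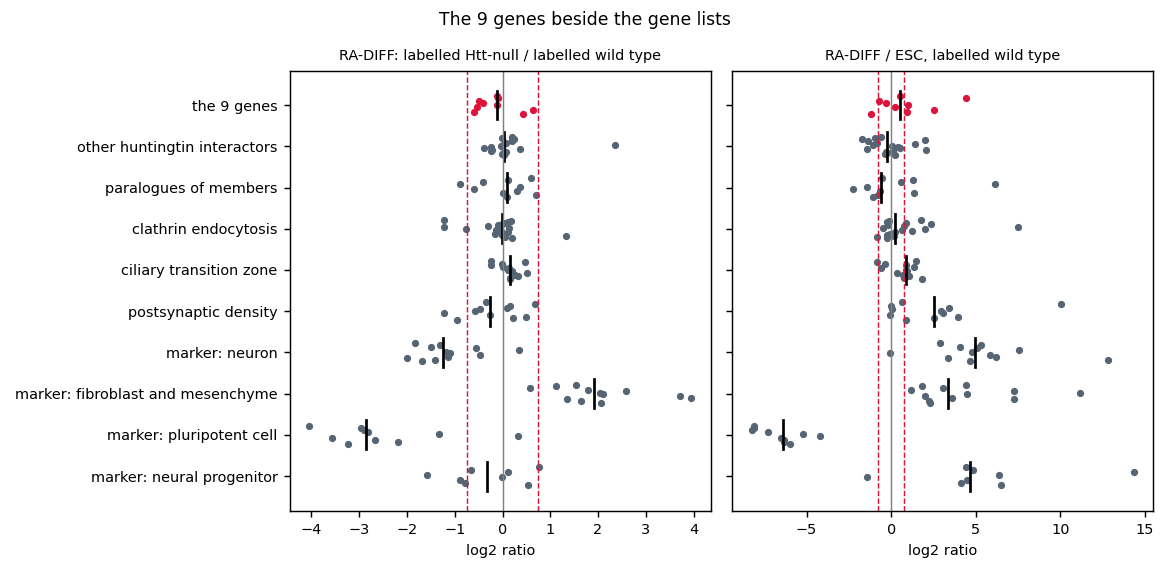
Log2 ratios (horizontal axis) of the 9 genes and of each related list and marker list, 1 point per gene above the expression limit, vertical bars at the medians and dashed lines at 0.75, for genotype in RA-DIFF (left) and differentiation in the libraries labelled wild type (right). On the left the 9 genes lie within the dashed lines, while most neuronal markers lie below -0.75 and most mesenchyme markers above 0.75.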

How the data were processed

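Polyadenylated RNA was sequenced by the authors as strand-specific paired-end reads, aligned with TopHat2 2.0.14 and counted per gene with HTSeq 0.6.1, by the submitters' processing notes. The deposited values are raw counts per gene, not normalised, with gene positions in GRCm38. The strand option of the counting is not named, and the methods state that defaults applied where nothing else was given. The 4 small RNA samples were not used here.

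TMM factors and mean log2 CPM were computed over the 4 mRNA libraries with edgeR 4.0.16 in R 4.3.3, and size factors with DESeq2 1.42.0. Ratios were taken after 0.5 counts were added, scaled to library size. With 1 library per condition no spread between replicates can be measured, so ratios are described by size and counting interval. The calculation was tested on simulated data. Exonic lengths came from GENCODE vM21, a later release than the counting used, and sequences from RefSeq.

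The 9 genes and the lists were chosen with earlier results of these data known. Named in the text were the 9 genes, the 5 genes nearest in pattern to Htt, genes within 500 kb of it, and list genes past the fold limit whose higher library held 100 counts or more, up to 4 per list and comparison. Neighbours and list genes named beyond that rule (Nlgn1, Dlg2 in ESC, single markers and the second values of pairs) were chosen after their values were seen. Alternatives were library size alone, DESeq2 size factors, 2 added counts, a fold limit of 1, no expression limit, assumed dispersions of 0.01 and 0.1, and exchanged RA-DIFF labels.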

Additional observations from a re-analysis of the deposited data

Results flagged for a closer look

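Htt had genotype ratios of opposite sign in the 2 states. Its log2 ratio in RA-DIFF minus that in ESC was 1.01, from -0.58 in ESC and 0.43 in RA-DIFF. Each state had 1 library per genotype, so the difference was not tested. With the RA-DIFF labels exchanged both ratios were below 0.

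Hip1r had differentiation ratios of opposite sign in the genotypes. Its log2 ratio in the libraries labelled Htt-null minus that in those labelled wild type was -0.51, from -0.28 and 0.23. This difference was not tested either, and both ratios were inside the fold limit. With the RA-DIFF labels exchanged the signs turned, to 0.26 in Htt-null and -0.31 in wild type.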

How the results depend on the processing

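No paired analysis was made because each condition had 1 library, and for the same reason no library could be left out. With library size alone the median ratio of the 9 genes was -0.18 for genotype in RA-DIFF (from -0.13) and 0.32 for differentiation in Htt-null (from 0.39). With the RA-DIFF labels exchanged the medians were 0.13 for genotype in RA-DIFF, 0.33 for differentiation in wild type (from 0.53) and 0.56 in Htt-null. When an exact test at an assumed dispersion of 0.1 also had to pass (p limit 0.05), 2 of the 9 genes (Hip1 and Dlg4) remained for differentiation in wild type, against 5, and 3 in Htt-null, against 4 (Sh3gl3 lost). A fold limit of 1 left 4 in wild type (Hap1 lost) and 3 in Htt-null (Sh3gl3 lost). DESeq2 size factors added Sh3gl3 in wild type, for 6, and left Htt-null at 4. Without an expression limit, 9932, 11867, 21606 and 21469 of all genes were past the fold limit for genotype in ESC, genotype in RA-DIFF and differentiation in wild type and Htt-null, against 1412, 3268, 9316 and 9172 with it, since it adds genes with low counts. The exact test at 0.1 left 252 in ESC and 1341 in RA-DIFF, and a fold limit of 1 left 839 in ESC. Scaling moved the ratio of any of the 9 genes by at most 0.07. Depth limited Pacsin1 and Dlg4 in ESC, with 359 to 867 counts.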
